A study of Mus musculus with 2 samples.

Results

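The regions described here are DNase I accessible sites of adult mouse calf muscle that lie in the first intron of a protein-coding gene and recur in both libraries. A recurrent site, called a shared peak, is a merged region in which a peak of each library's longer peak list overlaps a peak of the other by at least 1 bp. A shared peak was kept when its midpoint fell in the first intron of the longest GENCODE transcript of a protein-coding gene, outside every annotated exon and more than 1 kb from every annotated transcript start. This left 4367 first-intron peaks of 49160 shared peaks (8.88%, 95% exact interval 8.63 to 9.14%, which covers counting error only). The choice favours strong sites, since weak peaks seldom recurred (values below), and the midpoint is set by each library's strongest peak in the region.

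The assay was DNase-seq, which treats nuclei with DNase I, an enzyme that cuts open chromatin, and sequences the ends it leaves. The tissue was the gastrocnemius, a mainly fast-fibre calf muscle, of female B6CASTF1/J mice aged 2 months, with no treatment or engineered allele in the labels. These mice are F1 hybrids of C57BL/6J and CAST/EiJ, whereas positions and letters are those of mm10, a C57BL/6J genome, so sites on the CAST/EiJ chromosomes are read through the other strain's sequence. The single group held 2 libraries from separate biosamples. The labels number the females apart yet give them the same donor identifier, so separate animals are not settled and the spread may be partly technical. With 1 group there was no contrast between conditions, and no test was made.

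Replicate 1 had 66984 peaks and replicate 2 had 258342, and sequencing depth is unknown. Both libraries had peaks at the promoters of the skeletal muscle genes Acta1, Ckm, Tnnt3, Tnni2, Atp2a1 and Ryr1, with 3 to 7 peaks a gene in replicate 1 and 3 to 11 in replicate 2. Neither library had a peak at the promoter of Alb, the liver albumin gene. The tissue is a mixture of nuclei, so a site that is open in few nuclei and one that is weakly open in many cannot be told apart.

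An intron is spliced out of the transcript, but its DNA can hold enhancers, short stretches where transcription factors bind and act on the promoter nearby. First introns are the longest introns of many genes and lie next to the promoter. In muscle, MYOD and MYOG bind E-boxes of the form CAGCTG, and MEF2, TEAD and NFI factors bind sites in many enhancers of muscle genes. Where a factor is bound it can shield its site from DNase I, which leaves a footprint, a short gap in the cuts within an accessible region.

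The sequences below carry the patterns described in the rest of the text. Each is the 150 bp window at the centre of a first-intron peak, read 5′ to 3′ from the plus strand of mm10 (GRCm38), with only the named motif in capitals. A motif on the minus strand appears as its reverse complement. The first group shows sites in genes of clock and muscle regulation. In Per1, a period gene of the circadian clock, the capitals are a glucocorticoid response element. In Nr1d1, which encodes the clock repressor REV-ERB alpha, they are an SP/KLF site. In Nfic, which encodes a nuclear factor I protein, they are a CAGCTG E-box and a pair of NFY sites, and in Flnc, which encodes the muscle filamin of the Z-disc, a CAGGTG E-box.
Per1, chr11:69097076-69097225: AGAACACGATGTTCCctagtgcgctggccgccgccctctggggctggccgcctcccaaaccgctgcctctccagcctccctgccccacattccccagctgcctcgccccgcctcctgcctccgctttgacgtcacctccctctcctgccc
Nr1d1, chr11:98773936-98774085: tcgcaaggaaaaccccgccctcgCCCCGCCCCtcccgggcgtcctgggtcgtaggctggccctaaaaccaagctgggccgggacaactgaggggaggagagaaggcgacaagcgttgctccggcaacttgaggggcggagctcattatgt
Nfic, chr10:81433021-81433170: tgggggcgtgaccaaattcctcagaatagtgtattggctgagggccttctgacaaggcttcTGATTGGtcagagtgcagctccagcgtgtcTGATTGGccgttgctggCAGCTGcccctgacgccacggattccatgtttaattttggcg
Flnc, chr6:29434356-29434505: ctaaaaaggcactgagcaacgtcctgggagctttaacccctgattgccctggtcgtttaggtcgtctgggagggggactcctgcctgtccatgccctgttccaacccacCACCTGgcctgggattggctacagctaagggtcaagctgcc

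The second group shows, for each motif, the best-ranked peak that held it, and for the E-box the best-ranked peak with 3 or more copies. The capitals are CAGCTG E-boxes in Htra1, which encodes a secreted protease, and a CTCF site in Dot1l, which encodes a histone methyltransferase. They are an AP-1 site in Cdkn1a, which encodes the cell cycle inhibitor p21, and a MEF2 site in Bach2, which encodes a transcriptional repressor.
Htra1, chr7:130959956-130960105: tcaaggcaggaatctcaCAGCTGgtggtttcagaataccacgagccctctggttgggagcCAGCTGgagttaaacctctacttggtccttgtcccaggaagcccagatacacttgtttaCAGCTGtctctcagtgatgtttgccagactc
Dot1l, chr10:80757806-80757955: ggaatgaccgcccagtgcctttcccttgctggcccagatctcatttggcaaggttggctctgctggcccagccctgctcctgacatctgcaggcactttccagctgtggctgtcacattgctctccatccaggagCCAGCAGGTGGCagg
Cdkn1a, chr17:29095451-29095600: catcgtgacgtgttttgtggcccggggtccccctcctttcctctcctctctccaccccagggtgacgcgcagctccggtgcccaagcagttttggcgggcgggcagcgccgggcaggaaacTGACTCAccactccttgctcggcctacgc
Bach2, chr4:32303821-32303970: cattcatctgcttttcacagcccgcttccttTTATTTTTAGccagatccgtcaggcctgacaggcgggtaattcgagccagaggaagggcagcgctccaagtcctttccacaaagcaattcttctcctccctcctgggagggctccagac

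The first-intron peaks were spread over 2171 of the 14309 protein-coding genes that have eligible first-intron sequence, meaning bases outside every exon and more than 1 kb from every start. That is 15.2% of genes (exact interval 14.6 to 15.8%), and it is the background for every gene list below. Of these genes, 1244 held 1 peak, 766 held 2 to 4 and 161 held 5 or more. The share followed intron length. It was 1.64% of 2797 genes with at most 1 kb of eligible sequence, 13.2% of 2186 genes with 5 to 10 kb, and 51.9% of 626 genes with 50 to 100 kb. Genes with a first-intron peak had a median of 22.7 kb of eligible sequence, and genes without one had 3.29 kb.

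The peaks were mostly far from the promoter. The median distance from the start of the host transcript was 15.1 kb (quartiles 5.15 and 39.8 kb), and the closest lay 1003 bp away. Measured to the nearest annotated start of any transcript, the median was 6.34 kb, and 855 peaks (19.6%) lay within 2 kb of one. Neighbouring peaks in the same first intron were a median of 4.57 kb apart, and 23.1% of 2322 such pairs lay within 1 kb. Along the intron the density was highest in the part nearest the promoter. It was 22.6 peaks per Mb in the 5′ part when introns were split into 5 equal parts, and between 18 and 19.4 per Mb in the others.

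One annotation weighs on these counts. The longest transcript of Gm20388 has a first intron of 4.38 Mb on chromosome 8 that runs across other genes, and 178 peaks lay in it. Of these, 127 had Gm20388 as their only host, and the rest also lay in the first intron of another host gene. Inside a protein-coding gene that was not one of their hosts lay 49. Over all first-intron peaks, 113 had more than 1 host, and 168 (3.85%) lay inside a protein-coding gene that was not a host. A further count gave 252 with no host other than the 153 genes whose first intron holds a whole protein-coding gene.

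First introns held more shared peaks per base than later introns. With each base counted 1 time, there were 19.4 shared peaks per Mb over 225 Mb of eligible first intron and 12.3 per Mb over 633 Mb of later introns held to the same limits. Gene by gene, so that bases shared by overlapping genes count for each, the ratio was 1.56. In each library's own list it was 1.44 in replicate 1 and 1.29 in replicate 2. Both libraries thus placed first introns above later introns, by less than the shared list did.

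The difference narrowed with distance from the transcript start. From 1 to 2 kb, first introns held 44.8 shared peaks per Mb and later introns 31.0, a ratio of 1.44. The ratio stayed between 1.38 and 1.53 in each bin from 2 to 50 kb. In the same bins it was lower in each library's own list, at 1.15 to 1.32 in replicate 1 and 1.06 to 1.17 in replicate 2. From 50 to 100 kb the densities were 14.8 and 14.6 per Mb, a ratio of 1.01. Past 100 kb the ratio was 1.04, and without Gm20388 it was 0.67. In replicate 1 the bin from 50 to 100 kb gave 0.899, and in replicate 2 it gave 0.871, so beyond 50 kb no excess in first introns was seen in either list.

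**Figure D1:**
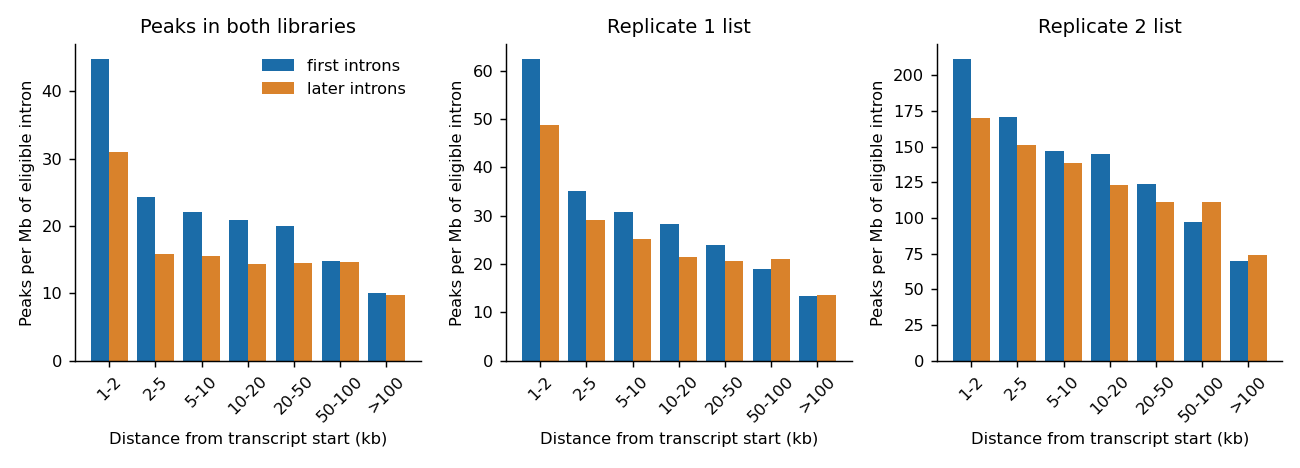
Peaks per Mb of eligible intron sequence (vertical axis) by distance from the host transcript start in kb (horizontal axis), for first introns (blue) and later introns (orange), in the shared peaks and in each library's own list. In the shared peaks the blue bars stand above the orange bars up to 50 kb, from 44.8 against 31.0 at 1 to 2 kb, and the pair is nearly level at 50 to 100 kb (14.8 and 14.6).

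Counted gene by gene, neither side led clearly. Among 3409 genes with at least 10 kb of eligible sequence in both their first and later introns, the pooled density was 17.2 peaks per Mb in first introns and 12 in later introns, a ratio of 1.43. Yet the first intron was the denser one in 965 genes and the later introns in 1002, while 1442 genes had no peak in either. The count was not matched for eligible length, which over all genes was 225 Mb in first and 633 Mb in later introns. Where a gene holds few peaks, the side with more sequence is more likely to hold one. The count therefore cannot say whether the order differs within genes.

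A readout that does not use the peak lists gave the same order. The authors' short segments each carry a deposited value of 0.05 or below. They covered 0.676% of eligible first-intron bases in replicate 1 and 3.47% in replicate 2. In later introns they covered 0.445% and 2.54%. The ratio of first to later was 1.52 and 1.37 (mean 1.44 ± 0.11, SD, n = 2). Outside all peaks of both libraries it was 1.46 and 1.37.

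First-intron peaks were of middling strength. The authors' signal, whose scale is not stated and which is read here only within a library, had a median of 0.843 in replicate 1 (quartiles 0.603 and 1.25) and 1.51 in replicate 2 (quartiles 0.936 and 2.43). The median peak stood at the 44.4th percentile of shared peaks in replicate 1 and at the 45th in replicate 2. Shared peaks in later introns stood lower, at 38.4 and 39.6, and those at promoters higher, at 68.8 and 68.7. Only 1.79% and 1.26% of first-intron peaks were in the strongest 10% of shared peaks, against 20.1% and 20.6% of promoter peaks. The median width was 240 bp, against 224 bp in later introns and 280 bp at promoters.

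The libraries ranked these sites alike. Across the 4367 peaks, Spearman's rank correlation between the signals was 0.83 and Pearson's r of log2 signals was 0.85. These values describe the peaks, which share their libraries and were chosen for presence in both.

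**Figure D2:**
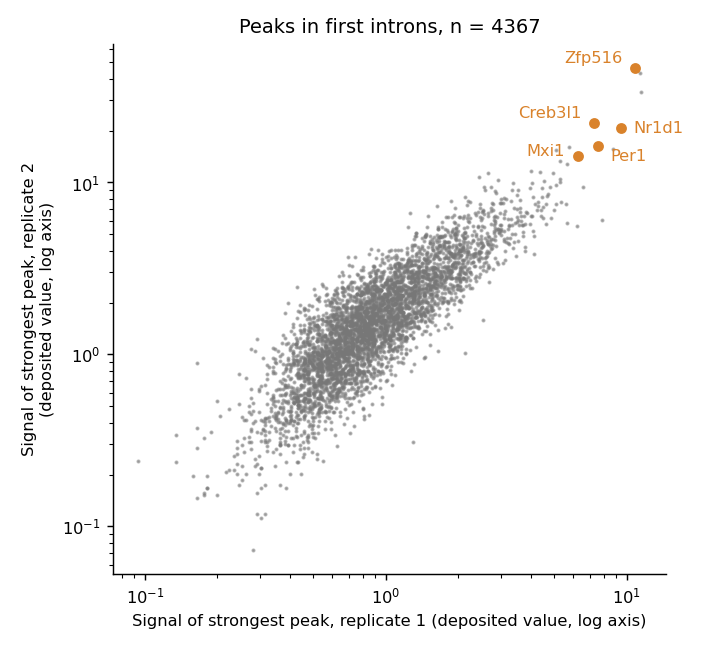
Authors' signal of the strongest peak in each of the 4367 first-intron peaks, replicate 1 (horizontal, log axis) against replicate 2 (vertical, log axis), with 5 of the highest-ranked host genes in orange. The points lie along 1 band, and the named sites stand at its upper end in both libraries, such as Nr1d1 at 9.45 and 20.9.

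Recurrence of first-intron sites rose with their strength and differed between the lists. Of 5805 first-intron peaks in replicate 1, 77.3% overlapped a peak of replicate 2, against 70.5% in later introns and 86.0% at promoters. Of 28473 in replicate 2, only 16% overlapped a peak of replicate 1, against 13.1% in later introns and 45.9% at promoters. When each list was split into 5 equal groups by signal, the weakest group of replicate 1 recurred in 22.4% and the strongest in 99.6%. In replicate 2 the same shares were 0.334% and 61.9%.

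The 10 strongest first-intron peaks included sites in several transcription factor genes, whose share among all host genes was not measured. By mean rank over both libraries, the first was in 4931414P19Rik (signal 11.4 in replicate 1 and 43.6 in replicate 2), followed by Zfp516, a zinc finger gene (10.8 and 46.3). The third lay in the Gm20388 intron (11.4 and 33.8). Nr1d1 came next, at 9.45 and 20.9, with its peak at chr11:98773761-98774220, 1322 bp from the host start. Creb3l1, a membrane-bound transcription factor gene, had 7.32 and 22.0, at 16 kb from the start. Mnt, which encodes a MAX partner that opposes MYC, had 8.79 and 15.6. Per1 had 7.58 and 16.2 at chr11:69096981-69097300, 1934 bp from the start. Acot11, an acyl-CoA thioesterase gene, followed with 5.75 and 16.1. Then came Mxi1, another MAX partner gene, with 6.24 and 14.3, and Nek7, a kinase gene, with 5.06 and 15.4. Most of these sites lay near an annotated start of some transcript. The distance was 1220 to 1797 bp for Zfp516, Nr1d1, Mnt, Per1, Mxi1 and Nek7. It was 2522 bp for 4931414P19Rik, 3755 bp for Acot11, 3781 bp for the Gm20388 site and 16026 bp for Creb3l1. The median over all first-intron peaks was 6.34 kb.

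Several genes held clusters of first-intron peaks. Rora, which encodes a nuclear receptor that drives clock genes, had 24 over 537 kb of eligible sequence, and its later introns had 5. Nfic had 20 in 29.8 kb, on chr10:81420799-81455539, and 6 in its later introns. In replicate 1 the signals of the Nfic peaks ran from 0.269 to 5.66 (median 0.793), and in replicate 2 from 0.308 to 12.7 (median 0.916). One strong site, printed above, thus stood among many weak ones. Gse1, a gene for a corepressor-associated protein, had 18 peaks, all of them also within the Gm20388 intron. Cxxc5, a zinc finger gene, and 1 of the gene models named Arhgap26 had 16 each. Bin1, which encodes the amphiphysin that shapes the T-tubules of muscle fibres, had 15 in its first intron and 15 in its later introns. Cuedc1 had 15, Kcnma1, the large-conductance potassium channel gene, had 14, and Bcor, the BCL6 corepressor gene, and Cmss1 had 13 each.

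The other genes high on this count had 9 to 12 peaks. They were Sh3gl1 (endophilin A2), Lrrfip1, Maml3 (a Notch coactivator), Rxra (the retinoid X receptor alpha), Ninj2, Bcl9l (a beta-catenin coactivator), Hspg2 (perlecan of the basement membrane), Zmiz1 and Sh3pxd2a. Ppp1r12b, Nmnat2, Gas7 and Filip1l tied with the last of these at 9. The Filip1l first intron lies inside that of Cmss1, so its 9 peaks are among the 13 of Cmss1. The number of peaks in these introns was uneven between the libraries' own lists for most genes named here. It was 26 in replicate 1 and 21 in replicate 2 for Nfic, 25 and 57 for Rora, 14 and 54 for Bcor, 12 and 56 for Ninj2, and 230 and 1163 for Gm20388.

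Counted per length, among genes with at least 10 kb of eligible sequence, Sh3gl1 was the densest at 9.03 peaks per 10 kb, followed by Bcl9l at 8.24, Nfic at 6.72, Cxxc5 at 6.66 and Mef2d at 6.61. Pooled over all eligible genes the density was 0.194 per 10 kb, and it was 0.241 in genes with 10 to 20 kb and 0.264 in those with 20 to 50 kb. Mef2d, which encodes a MEF2 factor, held 8 peaks in 12.1 kb, with signals of 0.626 to 2.10 in replicate 1 and 1.2 to 3.39 in replicate 2. Cavin1, a caveola coat gene, had 5.92 per 10 kb, Bin1 5.59 and Rara, the retinoic acid receptor alpha gene, 5.24. Cstad and Gm49380 followed with 4.94 and 3.93.

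By count, genes of the muscle fibre were hosts more often than the 15.2% of all eligible genes, with no matching for intron length. Of 26 eligible sarcomere and calcium-release genes, 13 (50%) held a first-intron peak. Their median eligible length was 1.97 kb, with Actn2 at 28.8 kb and Tnnt3 at 0.744 kb, and length bears on the share as given above. Actn2, the Z-disc alpha-actinin gene, had 5 peaks. Flnc had 4, with signals of 0.989, 1.14, 1.62 and 2.30 in replicate 1 and of 1.43, 1.51, 2.20 and 5.61 in replicate 2. Ryr1, the calcium release channel gene, had 3 in 3.75 kb, all weak, at 0.258 to 0.790 and 0.415 to 0.656. Tnnt3, the fast troponin T gene, had 1 at 1.82 and 2.30, and Mylpf, the fast regulatory light chain gene, 1 at 2.55 and 3.39. Of 6 eligible slow-fibre genes, 2 held a peak, Casq2 with 2 and Myl3 with 1.

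Among 25 eligible regulators of myogenesis and fibre type, 13 (52.0%) were hosts, with 64 peaks in all. After Nfic, Nfix and Mef2d had 8 each and Mafk, a small MAF gene, had 7. Myod1 had 1, at 0.714 and 1.05, in the 0.265 kb of its first intron that was eligible. For the dystrophin complex and the costamere, which tie the contractile apparatus to the membrane, the count was 11 of 20. Tln2, a talin gene, had 4 peaks, and Itga7, the laminin-binding integrin gene, had 3, of which the strongest had 3.42 and 5.84. At the neuromuscular junction it was 5 of 8, with 3 peaks in Colq, the collagen tail of acetylcholinesterase, and 2 in Lrp4, the agrin receptor gene. Musk, Dok7 and Etv5 had 1 each. Per 10 kb of eligible sequence the sarcomere list had 1.21 peaks and the regulators 1.30, against 0.194 over all eligible genes. The dystrophin and costamere list had 0.200 and the neuromuscular junction list 0.193, close to that value. Long introns weigh on these pooled densities. In the junction list Erbb4 had 361 kb of eligible sequence and no peak. In the costamere list Sgcd had 219 kb and 3 peaks. Over all genes with more than 100 kb the density was 0.101 per 10 kb, so 0.194 is not a background matched for length.

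The circadian clock had the highest share of the 20 lists, with 10 of 13 eligible genes (76.9%, exact interval 46.2 to 95%), against 15.2% of all eligible genes. Per 10 kb of eligible sequence the clock list had 0.607 peaks, against 0.194 over all eligible genes, 1.21 in the sarcomere list and 1.30 in the regulators. Rora held 24 of the 43 clock list peaks. Clock genes differ widely in eligible length, such as 1.73 kb in Per1 and 537 kb in Rora, and the share over all genes rose with length as given above. After Rora, Nfil3, a repressor of the D-box, had 4 and Per2 had 3. Arntl, Per1, Cry2 and Nr1d1 had 2 each, and Npas2 and Nr1d2 had 1 each. In Per1 the sites were 1.93 and 2.49 kb from the start, with signals of 7.58 and 1.83 in replicate 1 and 16.2 and 4.30 in replicate 2. In Nr1d1 the weaker site had 4.48 and 6.25 and held a CACGTG E-box, the form that CLOCK and BMAL1 bind. The hour of tissue collection is not in the labels, and whether it bears on these genes was not tested.

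Among the metabolic and signalling lists, hosts were 8 of 18 genes of fatty acid oxidation and mitochondria and 5 of 13 of glycolysis and glycogen. They were 8 of 20 of insulin signalling and glucose uptake, 5 of 15 of calcineurin, calcium and AMP kinase signalling, and 6 of 16 of atrophy and protein breakdown. The shares ran from 33.3% (calcineurin) to 44.4% (fatty acid), against 15.2% of all eligible genes. The exact intervals of the calcineurin (11.8 to 61.6%) and glycolysis (13.9 to 68.4%) lists held 15.2%. Per 10 kb of eligible sequence the lists had from 0.309 (calcineurin) to 0.831 peaks (glycolysis), against 0.194 over all eligible genes, with no matching for length. Ppargc1b, a coactivator gene of mitochondrial programmes, had 7 peaks, and Smad3, which transduces TGF-beta and myostatin signals, had 8. Pfkfb3, a regulator of glycolytic flux, and Tbc1d4, which gates glucose transporter traffic, had 5 each. Pkm, the pyruvate kinase gene, had 2, at 1.90 and 2.05 in replicate 1 and at 2.36 and 3.17 in replicate 2. Camk2b had 4.

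Of genes that mark other cells of the tissue, some lists stood above the 15.2% of all eligible genes and others near or below it. Of endothelial markers 6 of 14 held a first-intron peak, of satellite cell markers 4 of 10, of Schwann cell markers 4 of 11 and of macrophage and lymphocyte markers 3 of 10. The counts were 2 of 12 (16.7%) for fibroblasts and tenocytes, 1 of 7 (14.3%) for mural cells and 0 of 5 for adipocytes, which are near or below that background. Per 10 kb of eligible sequence the satellite cell list had 1.99 peaks, the macrophage and lymphocyte list 0.343 and the endothelial list 0.338. Of the 8 peaks in the satellite cell list, 3 were in Itga7, which is also in the costamere list, and 3 in Sdc4. Chodl and Heyl had 1 each, and Pax7, Pax3 and Myf5 had none. In the same unit the fibroblast and tenocyte list had 0.185, the Schwann cell list 0.175 and the mural list 0.146, below the 0.194 over all eligible genes. The Schwann cell value rests largely on 1 long intron. Ncam1 had 226 kb of eligible sequence and 2 of the 5 peaks, and the list median was 2.39 kb. In Pecam1, an endothelial junction gene, 2 peaks had 0.609 and 0.679 in replicate 1 and 2.22 and 1.27 in replicate 2. Spi1, the PU.1 gene of myeloid cells, had 1 at 2.11 and 5.08. Of genes outside this tissue, 1 of 9 hepatocyte genes (Hnf4a) and 2 of 13 neuron genes (Rbfox3 and Nrxn3) held 1 each. Numbers per list are small, list genes differ in intron length, and the part of each cell type in these peaks was not tested.

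**Figure D3:**
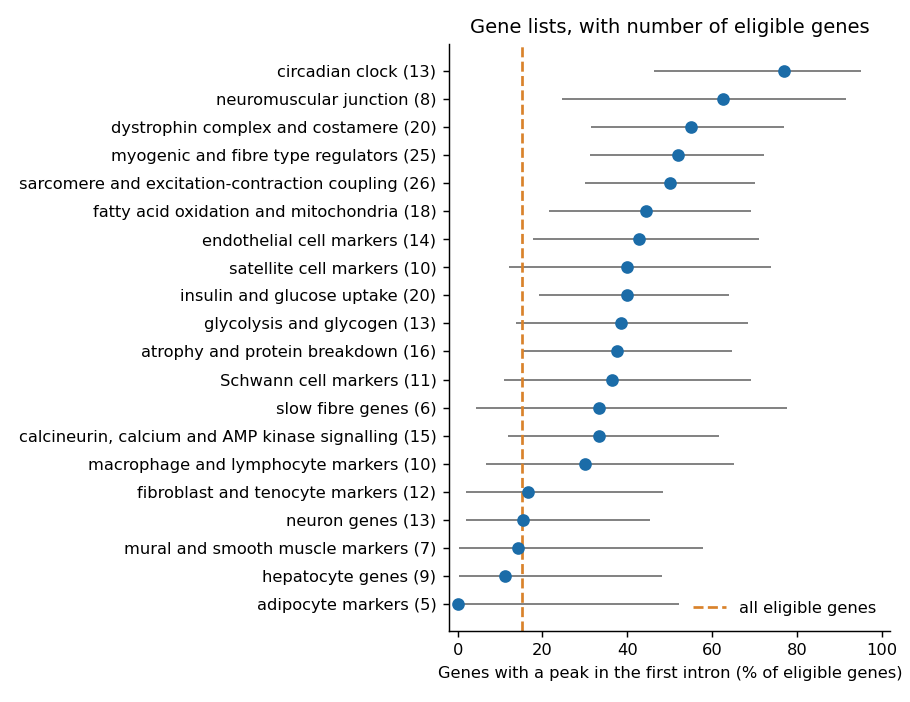
Percent of eligible genes with a first-intron peak (horizontal axis) in each of 20 gene lists (vertical axis, number of eligible genes in brackets). Points are shares, grey lines their exact 95% intervals, and the dashed line the 15.2% of all eligible genes. The circadian list stands highest at 76.9%, and the adipocyte list has 0 of 5.

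The letters under the first-intron peaks were richer in some motifs than the DNA beside them. Motifs were sought on both strands in the 150 bp window of every peak and in 6953 windows 1 kb to either side that overlap no peak of either library. The CAGCTG E-box was in 1120 peaks, or 25.6% (exact interval 24.4 to 27.0%), and in 7.08% of flanks (6.48 to 7.70%), 3.62 times as often. Later-intron peaks had it in 26.0% and promoter peaks in 12.4%. At least 2 copies were in 177 peaks (4.05%) and in 0.23% of flanks, and 16 peaks had 3 or more, such as the Htra1 window above. In that site the signal was 1.64 in replicate 1 and 4.17 in replicate 2, at 23.8 kb from the start.

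Motifs of broadly expressed factors were also more frequent in peaks than in flanks, by 2.70 to 11.9 times for those named here. AP-1 sites (TGACTCA or TGAGTCA), bound by FOS and JUN, were in 8.01% of peaks and 2.33% of flanks, 3.44 times as often. The NFI site TTGGCA was in 19.6% and 6.92%, 2.84 times. MAF sites, which can overlap an AP-1 site, were 4.90 times as frequent, CREB sites (TGACGTCA) 9.95 times, and the CACGTG E-box 2.70 times. The glucocorticoid response element was in 30 peaks, 0.687% against 0.058%, and the ROR element in 19, 0.435% against 0.043%. These folds of 11.9 and 10.1, and that of CREB, rest on few flanks. Of 32 motifs, 13 stood above the flanks with intervals apart, 3 stood below (SOX, GATA and TCF/LEF), and 16 overlapped them.

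Base composition differed between the windows and moved some of these values. The median GC content was 55.3% in peaks and 46.7% in flanks. Among windows of 50 to 60% GC, 3100 peaks and 2130 flanks, the CAGCTG E-box was 2.54 times as frequent in peaks, AP-1 2.77 times and the NFI site 3.07 times. MEF2 sites, in 2.5% of all peaks and 2.52% of all flanks (0.992 times), were in 2.48% and 0.423% within this range, 5.88 times. The CAGGTG E-box went the other way, from 1.26 times over all windows to 0.819 times within the range. SP/KLF sites (GGGGCGGGG) went from 2.77 to 1.05 times, CREB sites from 9.95 to 3.89 and the glucocorticoid response element from 11.9 to 4.81. Within the range 11 motifs stood above and 1 below with intervals apart.

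**Figure D4:**
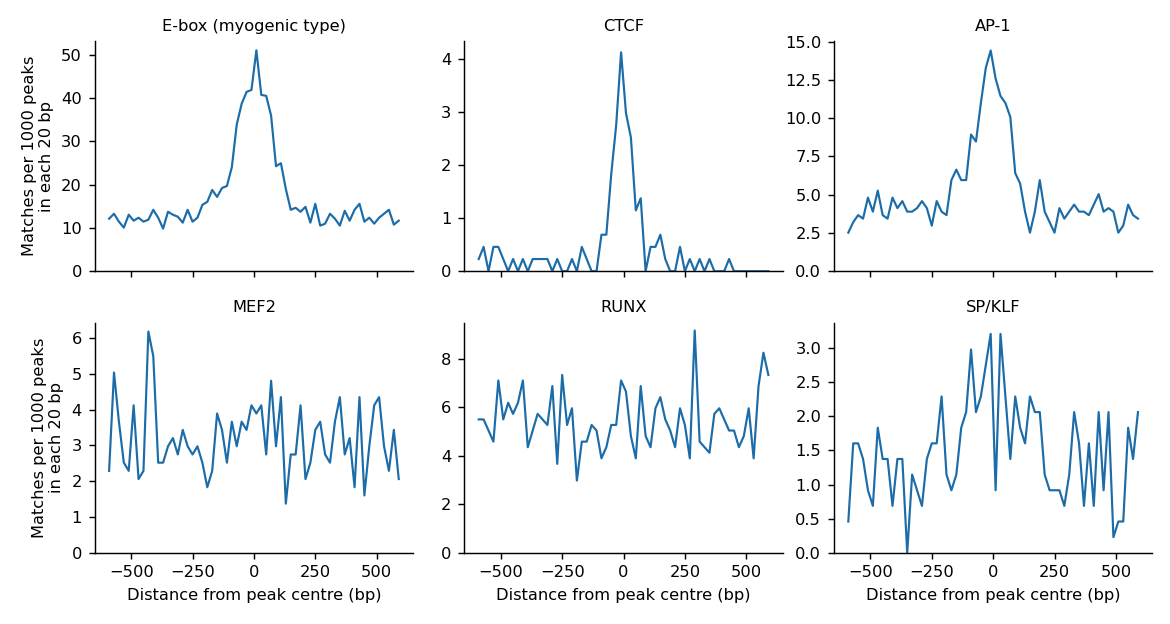
Motif matches per 1000 first-intron peaks in each 20 bp step (vertical axes) by distance from the peak centre in bp (horizontal axes), for 6 motifs. E-boxes of the myogenic type rise from 12.4 at 400 to 600 bp to 43.8 within 40 bp of the centre, AP-1 from 3.85 to 12.9 and CTCF from 0.126 to 3.09, whereas MEF2 (3.30 and 3.89) and RUNX (5.77 and 5.95) are nearly flat.

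Few motifs set first-intron peaks apart from later-intron peaks, since 30 of the 32 had overlapping intervals. The insulator factor CTCF was the 1 motif that was less frequent in first introns, in 72 peaks or 1.65% (1.29 to 2.07%) against 3.10% (2.73 to 3.51%) in later introns and 4.13% in intergenic peaks. Flanks had it in 0.101%. SP/KLF was the 1 motif that was more frequent, in 1.51% (1.17 to 1.92%) against 0.824% (0.635 to 1.05%). The SP/KLF share was 3.74% in the 855 peaks within 2 kb of any start and 0.842% from 5 to 20 kb. The CAGCTG E-box ran the other way, at 20.9% within 2 kb of a start and 27.6% past 20 kb.

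The E-box was somewhat more frequent in stronger peaks. With peaks split into 3 equal groups by mean rank, it was in 28.8% of the strongest (exact interval 26.5 to 31.2%), 25.8% of the middle and 22.4% of the weakest (20.3 to 24.6%). The 1120 peaks with the E-box had median signals of 0.878 and 1.60, against 0.843 and 1.51 over all first-intron peaks. The 72 with a CTCF site were weaker, at 0.717 and 1.2. Peaks with the E-box had a MEF2 site in 2.5%, and peaks without it in 2.49%.

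Footprints of the deposited lists were found in most first-intron peaks. In replicate 1, 86.2% (exact interval 85.1 to 87.2%) held at least 1, and in replicate 2, 92.4% (91.5 to 93.1%), with a median of 2 a peak in both. In 58.5% a footprint of one library overlapped one of the other. This share rose from 24.1% in the weakest of 5 equal groups of peaks to 88.3% in the strongest. Later-intron peaks had a like share, 56.6%, and promoter peaks 67.7%. Counting replicate 1 footprints that overlap a footprint of replicate 2, the highest number was 8, in a peak of Sdk2, a cell adhesion gene, where replicate 2 itself had 5. It was 7 each in peaks of Nr1d1, Gm20388, the imprinted gene Peg3, S1pr2 and Gramd2.

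Not every motif that was frequent in the peaks lay in footprints. Each match in a first-intron peak was compared with the positions 50 bp to either side inside the same peak. Of 87 CTCF sites, 63.2% lay in a footprint in replicate 1 and 74.7% in replicate 2, against 4.83% and 16.6% of moved positions, which is 13.1 and 4.51 times as often. For 1431 NFI sites the shares were 35.8% and 41.4% against 13.0% and 16.9%, or 2.76 and 2.45 times. SP/KLF sites had 2.43 and 2.14 times. For 1996 CAGCTG E-boxes the shares were 19.8% and 24.6% against 13.0% and 18.8%, or 1.53 and 1.31 times. The 555 AP-1 sites were at 1.04 and 1.09 times and the 176 MEF2 sites at 0.977 and 0.605. The E-box ratio was thus lower than those of NFI and CTCF sites in both libraries, though 25.6% of peaks held an E-box in their central 150 bp. The matches compared here were sought over the whole peak, so they cover more sequence than that share.

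**Figure D5:**
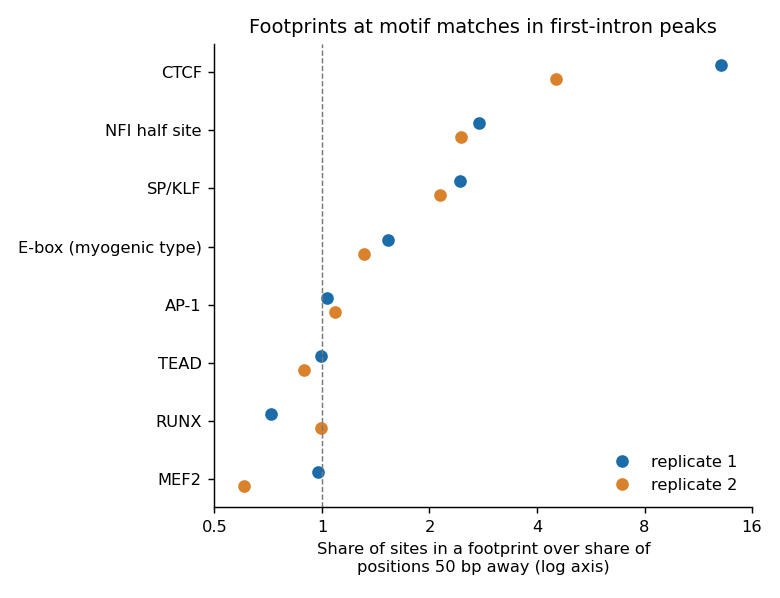
Share of motif matches that lie in a footprint, divided by the share of positions 50 bp away in the same peaks (horizontal, log axis), for motifs with at least 50 matches, in replicate 1 (blue) and replicate 2 (orange). CTCF stands highest (13.1 and 4.51), NFI and SP/KLF sites lie above 2 in both libraries, and AP-1 sites lie close to the dashed line at 1 (1.04 and 1.09).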

How the data were processed

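DNase-seq was measured in 2 libraries of 1 group. Per the labels, positions are on mm10. The deposited README files derive each peak list from the alignments of its own library. Aligner and peak caller: not given in the sources used here. The authors gave each peak a signal value of unstated scale, used here only within a library's list and for the correlation across peaks. The authors' segment and footprint files carry a deposited p-value column, which is 0.05 or below in every segment and 0.01 in every footprint. Sequencing depth is unknown, so no precision per peak can be given.

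Peaks of the longer list of each library that overlapped a peak of the other were merged, also where they only touched, and the midpoint is the mean of the midpoints of each library's strongest peak. Introns came from GENCODE release M21, and the longest transcript is the one that spans most genome. Motifs were consensus letters without weights. MEF2, CTCF, glucocorticoid, ROR and SRF consensus sites used degenerate letters. Shares carry exact Clopper-Pearson intervals at 95%, for counting error only. The merging of shared peaks, the density ratio, the motif share and the footprint shares at sites and at moved positions were tested on simulated data. The other steps were not. Tables were handled with pandas 2.3.3 and numpy 2.4.6 under Python 3.11.15, intervals with scipy 1.17.1, sequence with pysam 0.24.0 and plots with matplotlib 3.10.9.

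The regions, the 20 gene lists and the 32 motifs were chosen with earlier results of these data known. Named are the 20 genes with most first-intron peaks, up to 3 genes per list with most, the 10 best-ranked peaks, the 10 genes with most peaks per 10 kb, and the 5 peaks with most replicate 1 footprints that overlap a replicate 2 footprint, with ties and a few further list genes chosen after their values were seen. Some genes that the rule selects are not reported here. All 353 list entries matched a gene, 1 of them by a synonym.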

Additional observations from a re-analysis of the deposited data

How the results depend on the processing

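Of 146 values of 14 results under other settings, 98 moved by less than the spread between the libraries' own lists and 48 by more. The spread was 1 SD (n = 2), or 1.5 times for the number of peaks. Among these values 0 changed direction, but only ratios could do so, not numbers, shares or distances. Density ratios outside this set did fall below 1. They were 0.67 past 100 kb without Gm20388, and 0.899 and 0.871 from 50 to 100 kb in the lists of replicates 1 and 2. The counts of 98 and 48 depend on the size of that spread, so they do not measure how stable the results are. The SD was 14.4 percentage points for the share of genes with a peak. The fall of that share from 15.2% to 8.84% with the shorter peak lists thus counted as within it. For the CTCF share in first over later introns the SD was 0.0015, and every other setting counted as moved. The NFI and first-to-later results, the range of GC content and the leaving out of annotations were chosen after seeing the data. No paired analysis was possible because there was only 1 group.

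With a single library's list in place of shared peaks, the number ran from 5805 to 28473 peaks, the share from 8.67 to 11.0%, the density ratio from 1.29 to 1.44 and the share of genes from 16.8 to 37.1%. The folds over flanks ran from 2.42 to 3.11 for CAGCTG, from 15.3 to 16.4 for CTCF, from 2.04 to 2.75 for AP-1 and from 1.83 to 2.51 for the NFI site. The CTCF share in first over later introns ran from 0.544 to 0.546 and that of SP/KLF from 1.45 to 1.77. The median distance ran from 13.7 to 15.8 kb.

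With the shorter peak lists, 2131 peaks were left, with a density ratio of 1.67, footprints in 93.7%, folds of 8.48 for CTCF and 4.22 for AP-1, and a CTCF share over later introns of 0.478. Over 2 kb from any start, the share of peaks was 7.14%, the density ratio 1.45, the median distance 19.9 kb, and the first-to-later ratio 0.539 for CTCF and 1.28 for SP/KLF. By distance from the start, the density ratio was 1.44 at 1 to 2 kb, 1.42 at 5 to 10 kb, 1.45 at 10 to 20 kb, 1.38 at 20 to 50 kb, 1.01 at 50 to 100 kb and 1.04 past 100 kb. At 50 to 60% GC the folds were 2.54 for CAGCTG, 12.1 for CTCF and 2.77 for AP-1.

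The CTCF fold rests on few flanks. It was 23.5 with the middle of the merged region, 12.2 with 200 bp windows, 39.1 with flanks 2 kb away, 12.3 with the transcript of most exon length, 17.8 without Gm20388 and 17.2 without first introns that hold a whole gene. The CTCF share over later introns was 0.54 with the middle of the region, 0.4997 with equal numbers of strongest peaks, 0.507 with 200 bp windows, 0.438 with most exon length, 0.518 with protein-coding transcripts, 0.51 without Gm20388 and 0.507 without introns that hold a whole gene. The last setting gave a median distance of 13.6 kb. The cause of these moves was not tested.

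A site absent from the shared peaks can lie below the limit of replicate 1, whose list is the shorter. The longest transcript is an annotation choice, and no measurement here ties an intron's accessible site to expression of its host gene.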
